A study of Mus musculus with 4 samples.

Results

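Lymphatic endothelial cells (LECs) line the vessels that drain fluid, protein and leukocytes from a tissue. In the ovary these vessels run through the stroma around the follicles and corpora lutea. Their fate is set by the homeobox factor Prox1, their growth by the receptor Flt4 (VEGFR-3) and its ligand Vegfc, and their chemokine Ccl21 guides dendritic cells into the vessel. Capillaries, which take up fluid, carry the hyaluronan receptor Lyve1, and collecting vessels with valves carry less of it and rely on Foxc2 and Gata2.

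The cells were taken from ovaries of 8-week-old female mice, profiled by single-cell RNA sequencing with a 3′ droplet kit in 4 libraries. Libraries Fosl2F/F 1 and Fosl2F/F 2 came from mice with LoxP sites in both Fosl2 alleles and no Cre. Libraries Fosl2cKO 1 and Fosl2cKO 2 came from mice with the same alleles and Cre under the Cyp19a1 promoter, which is active in granulosa cells (GCs) of the follicle. All mice thus carried the floxed alleles, the study describes them as litter mates in estrus, and each library was taken as 1 replicate. The labels do not say how many ovaries a library holds, so that p-values measure the spread between these libraries. Values are given below in the order Fosl2F/F 1, Fosl2F/F 2, Fosl2cKO 1, Fosl2cKO 2.

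A cell was counted as an LEC if it held RNA of at least 3 of 6 genes, Mmrn1, Prox1, Flt4, Lyve1, Ccl21a and Reln, both Mmrn1 and Prox1 among them. Cells with Inhba and Amh at 10 or more per 10000 UMIs (unique molecular identifiers, each marking 1 captured RNA molecule), or with 3 or more UMIs of C1qa, C1qb and C1qc, were left out, which sets aside mixtures with GCs and macrophages. These limits were met by 334 of 47782 cells (0.699%), namely 40, 165, 102 and 27 cells. All 6 genes were detected in 142 of them, 5 in 106, 4 in 59 and 3 in 27. Just outside the limits lay 11 cells with Mmrn1 and Prox1 alone, 79 with 3 or more of the genes but not both, 8 with too much Inhba and Amh and 3 with too much C1q. The LECs held 347320, 1062356, 1365341 and 239634 UMIs in all per library, with medians of 5796, 3468, 7399.5 and 4750 UMIs and 2636.5, 1929, 3093 and 2508 genes a cell. A count of 3 UMIs therefore corresponds to 8.64, 2.82, 2.20 and 12.5 CPM (UMIs per 1000000 UMIs of a cell class in a library), and levels at or below these values were at the limit of detection. No LEC barcode was shared between the LECs of different libraries, and 61 LECs (5, 46, 8 and 2) were scored as doublets. The cut for doublets grew with the size of the library and marked 7.03, 19.5, 5.74 and 6.01% of all cells.

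The 6 genes that chose the cells are given as a description. Mmrn1, which encodes a matrix protein of the multimerin family, was at 1500.1, 979.9, 1642 and 1790.2 CPM. Prox1 was at 674, 749, 1375 and 1394 CPM. Each LEC had to hold its RNA, and it was not tested between conditions. Flt4 was at 544, 249, 387 and 538 CPM and Lyve1 at 544, 240.0, 672 and 476 CPM, with the lowest value of each in Fosl2F/F 2, the library with the lowest UMI count per cell. Reln, which encodes the secreted glycoprotein reelin, was the most even of the 6, at 841, 805, 939 and 1022 CPM. Ccl21a was the most abundant, at 9354, 3775, 3719.9 and 5642 CPM, and the LECs held 81.9, 71.5, 94.9 and 89.0% of all Ccl21a UMIs of each library. The mouse genome holds several near-identical Ccl21 genes, so the assignment to one copy is uncertain. Of the related entries, Gm21541 held 6, 16, 20 and 1 UMIs of the LECs against 3249, 4010, 5079 and 1352 for Ccl21a.

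The label was checked on lymphatic genes that the rule did not use, against 1030 blood endothelial cells (BECs: 106, 633, 137 and 154) chosen by Flt1, Emcn and related genes and by the lack of Prox1 and Mmrn1. Of 20 such lymphatic identity genes tested, 17 were higher in LECs and 0 lower, against 6.01% higher and 6.29% lower over all 10169 genes. Their median log2 difference was 3.53, against -0.01 over all genes. The median was 3.53 also with the 2 genes at 3 UMIs or fewer in BECs set to their counting bound. Podoplanin (Pdpn), the mucin-type membrane protein used to stain lymphatics, was at 169.9, 170.4, 243 and 121 CPM in LECs and 62.4, 25.7, 50.1 and 35.0 CPM in BECs (log2 difference 2.13 ± 0.22 SE, adjusted p = 1.25e-04). The neuropilin Nrp2, a co-receptor of Flt4, was at 1002, 746, 784 and 956 CPM against 214, 294, 259.6 and 249 CPM (log2 difference 1.78, adjusted p = 5.78e-05). The factors Nr2f2 (log2 difference 1.09), Maf (2.58) and Foxc2 (5.45) were higher in LECs as well. Sox18, Gata2 and Piezo1 did not pass the test, with log2 differences of -0.74, -0.02 and 0.66. LECs had to hold RNA of Prox1 and Mmrn1 and BECs to lack it, and the list was chosen with earlier results of these data known. This check is thus not independent of the rule. Most genes of the list were higher in LECs than in BECs.

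The first comparison asked how abundant LECs were in each condition. LECs made up 0.456%, 0.678%, 1.42% and 0.360% of all cells, with exact 95% binomial intervals of 0.326 to 0.620, 0.579 to 0.790, 1.16 to 1.72 and 0.237 to 0.523%. Of LECs and BECs together they made up 27.4%, 20.7%, 42.7% and 14.9%. The libraries labelled Fosl2cKO thus held both the highest and the lowest share, on either count, and the groups overlapped. The mean share of all cells was 0.567% ± 0.158 (SD, n = 2) in Fosl2F/F and 0.891% ± 0.751 (SD, n = 2) in the libraries labelled Fosl2cKO, a log2 ratio of 0.65 (exact permutation test, two-sided, p = 1.0). For the share of endothelial cells the log2 ratio was 0.26 (p = 1.0 in the same exact test). With 2 libraries a group this test cannot give a p under 0.333. Without Fosl2cKO 1 the log2 ratios were -0.66 and -0.69, so that the direction rests on that library. The intervals cover counting error only.

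**Figure D1:**
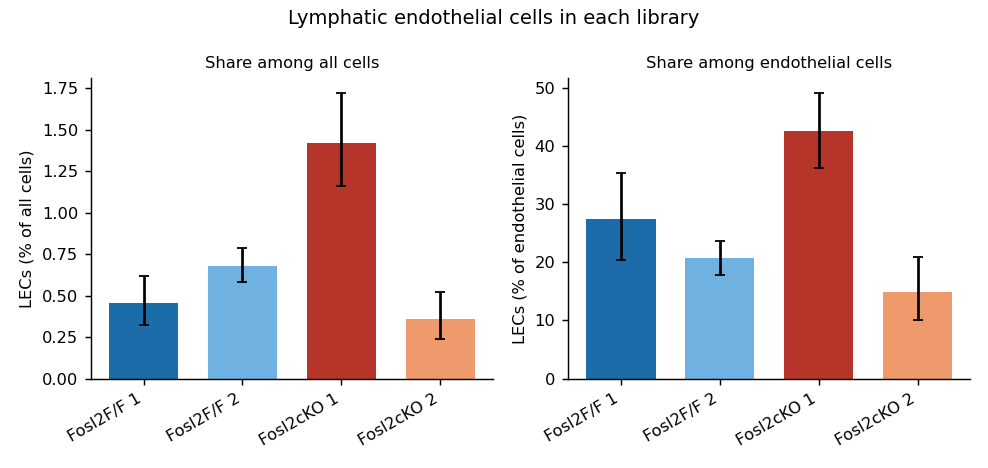
Share of LECs among all cells that passed the filters (left, in %) and among LECs and BECs together (right, in %), with 1 bar a library and exact 95% binomial intervals as error bars. Fosl2cKO 1 has the highest bar (1.42% and 42.7%) and Fosl2cKO 2 the lowest (0.360% and 14.9%) in both panels.

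LECs and BECs of the same library were then compared, with the library as a block, to show which genes set LECs apart within the endothelium. Of 10169 genes tested, 611 were higher in LECs (6.01%) and 640 lower (6.29%), with edgeR's adjusted p below 0.05 and log2 differences beyond 1. Among genes with a mean of at least 50 CPM in the higher class, the 15 with the highest and the 15 with the lowest differences are named here. Rspo3, a secreted enhancer of Wnt signalling, was at 83.5, 93.2, 111 and 58.4 CPM in LECs and at 0, 0.362, 0 and 0 CPM in BECs. It rests on 2 UMIs in BECs, so the pooled ratio of 546 has a counting interval of 150 to 4530. Ptx3, a pentraxin of innate immunity, was at 135, 50.8, 35.2 and 129 CPM in LECs with 2 UMIs in BECs (pooled ratio 334, interval 91.2 to 2782). Tbx1, a T-box factor needed for lymphatic growth, had a pooled ratio of 197 (53.2 to 1647), again over 2 UMIs in BECs, and the imprinted RNA H19 one of 236 (79.7 to 1157) over 3.

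Nts, which encodes the peptide neurotensin, was at 77.7, 253, 1608 and 693 CPM in LECs and 0, 5.62, 0.482 and 0 CPM in BECs (log2 difference 7.79 ± 0.78 SE, adjusted p = 8.44e-05). The guidance genes Ntn1 (netrin-1, 236, 320.0, 387 and 455 CPM against 4.73, 5.43, 5.30 and 4.32 CPM, log2 difference 6.12) and Sema3a (a semaphorin that shapes lymphatic valves, 132, 171, 349 and 342 CPM against 2.84, 5.07, 0.963 and 5.11 CPM, log2 difference 5.95) were higher in all 4 libraries. Sema3a was named from a gene list and was not among the 15. The sodium channel Scn3a (log2 difference 6.57), the growth factor homologue Fgf12 (6.85) and the adaptor Apba2 (6.77) belonged to the 15, as did Nts and Ntn1. The others were Dtx1, a regulator of Notch (7.28), Gm525 (7.24), the iron-carrier binding protein Lcn2 (6.55), Tc2n (6.35), Lrrn4cl (6.32) and Gm14964 (6.29). Each of the 15 had adjusted p-values of 8.44e-05 or less, and for each the lowest LEC library lay above the highest BEC library. The size of these differences is less firm than their direction, since leaving out 1 library moved the fold of 23 of the 30 named genes by over 1.5 times, 20 of them without Fosl2F/F 2, the library with the most BECs. For Nts, whose BEC UMIs lay mostly in that library, the log2 difference was 11.77 without it and 6.82 without Fosl2cKO 1.

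Among the genes lower in LECs, Ly6c1 was at 5.76, 9.41, 2.93 and 0 CPM in LECs and 585, 270.1, 347 and 285 CPM in BECs (log2 difference -5.99 ± 0.35 SE, adjusted p = 5.98e-06), and its relative Ly6a at 2.88, 15.1, 4.39 and 0 CPM against 599.6, 259, 441 and 283 CPM. Both belong to a family of like genes whose reads are hard to separate. The apelin receptor Aplnr was at 2.88, 2.82, 2.20 and 4.17 CPM against 147, 75.7, 149 and 151 CPM (log2 difference -5.43), and the arterial factor Sox17 at 0, 3.77, 3.66 and 0 CPM against 65.3, 35.5, 97.8 and 189 CPM (log2 difference -4.67). Mecom, another factor of arterial and stem cell fate, was among the most abundant of the set, at 809, 715, 725 and 727 CPM in BECs and 2.88, 85.7, 28.6 and 0 CPM in LECs. The Wnt effector Lef1 (log2 difference -4.43), the sialomucin Cd34 (-4.30) and the efflux pump Abcb1a (-4.12) were also lower. The remaining 7 of the 15 were Esrrg, Kirrel3, Lrrc3b, Fam167b, Vwa1, Tmem252 and Palmd, with log2 differences between -4.92 and -4.26. In LECs Esrrg and Lrrc3b rest on 6 UMIs each, Aplnr on 8 and Sox17 on 9, so the size of these differences is not firm. Every LEC level of Aplnr was at or under the limit of detection.

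**Figure D2:**
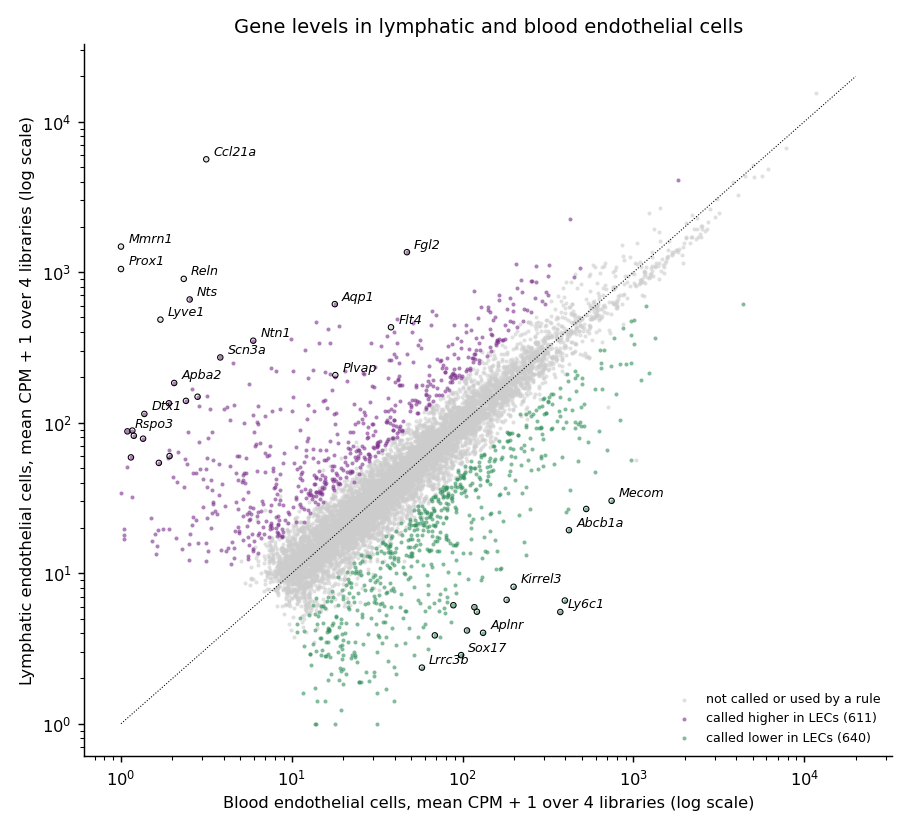
Mean level of each gene over the 4 libraries in BECs (horizontal axis) and LECs (vertical axis), in CPM + 1 on log scales, with the dotted line marking equal levels. The 611 genes called higher in LECs lie above the line and the 640 called lower below it. Circles mark the 15 highest and 15 lowest named genes and markers, and Ccl21a, Prox1 and Mmrn1 were used to choose the cells.

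Gene lists of endothelial biology gave the following counts between LECs and BECs, beside 6.01% higher and 6.29% lower over all genes. The list of valve and collecting vessel genes shares genes with the lymphatic identity list above. In it 6 of 12 were higher and 0 lower, with a median log2 difference of 1.43. Among them were the claudin Cldn11 (17.3, 51.8, 69.6 and 121 CPM against 0.946, 0.906, 1.44 and 0.393 CPM, log2 difference 6.07), integrin alpha 9 (Itga9, 2.32), the planar polarity receptor Celsr1 (3.02) and fibronectin (Fn1, 1.88). In the VEGF family 2 of 8 were higher and 2 lower. Placental growth factor (Pgf) was at 69.1, 64.9, 41.7 and 70.9 CPM against 9.46, 8.69, 1.44 and 4.32 CPM (log2 difference 3.42). Vegfc, the ligand of Flt4, was at 8.64, 11.3, 19.0 and 0 CPM in LECs and 183, 134, 139.7 and 203 CPM in BECs (log2 difference -3.58, adjusted p = 7.72e-05), and Nrp1 was lower too (-3.97). The receptor Kdr was at 461, 318, 481 and 568 CPM in LECs and 432, 405, 448 and 557 CPM in BECs and did not pass the test.

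Of the angiopoietin genes, the ligand Angpt2 was higher in LECs, at 216, 247, 472 and 363 CPM against 35.9, 35.3, 25.04 and 32.6 CPM (log2 difference 3.30), and Angpt1 lower (-1.43), of 4 tested. Adrenomedullin (Adm), a peptide that lymphatics need to form, was at 31.7, 126, 187 and 355 CPM against 33.1, 22.6, 32.3 and 25.9 CPM (log2 difference 2.47). Its receptor component Calcrl and the partner Ramp2 did not pass (-0.43 and -0.17), and the partner Ramp3 was lower (-2.70). Among leukocyte trafficking genes 4 of 18 were higher and 6 lower, against 6.01% and 6.29% over all genes. The scavenger and adhesion receptors Stab1 (2.85) and Mrc1 (5.09), the lymphocyte factor Il7 (5.23) and Sema3a were higher. The chemokine Cxcl12 (-2.81) and the adhesion molecule Vcam1 (-2.70) were among the lower. Spns2, the exporter of sphingosine 1-phosphate, was at 66.2, 45.2, 74.7 and 104 CPM in LECs and 52.0, 39.1, 23.1 and 38.5 CPM in BECs and did not pass the test (adjusted p = 0.0503).

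Among the junction genes, for which the full count is not given here, 5 were lower, one of them Esam (37.4, 97.9, 80.6 and 41.7 CPM against 905, 589, 670.4 and 645 CPM, log2 difference -3.33). Claudin 5 (Cldn5) was at 1439.6, 753, 1459.7 and 1131 CPM and 1281, 661, 864 and 714 CPM and did not pass the test. Of the matrix genes 3 of 15 were higher, Emilin1 (1.49), Timp2 (1.84) and Fn1, and 4 were lower, the basement membrane genes Col4a1 (-1.89), Col4a2 (-1.76) and Hspg2 (-2.12) and the multimerin Mmrn2 (-1.36). In the Notch and BMP list 2 of 17 were higher, Tgfbr2 (1.65) and Bmp4 (1.91), and 7 lower, with Notch4 the lowest (-3.60). Counts for hormone receptors and antigen presentation were close to the shares over all genes, 6.01% higher and 6.29% lower. Of 11 hormone receptor genes the mineralocorticoid receptor Nr3c2 was higher, at 397, 395, 454 and 597 CPM against 53.9, 57.6, 54.4 and 35.4 CPM (log2 difference 3.19), and the insulin receptor Insr lower (-2.34), and of 9 antigen presentation genes Tap1 was lower (-1.16) and 0 were higher. Of 9 lipid genes Pparg (2.68) and Lpl (1.62) were higher and Scarb1 (-1.88) lower.

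BECs were chosen by genes of this kind, so the count for the list of blood endothelial genes is not independent of the rule. Over all genes, 6.29% were lower and 6.01% higher. Of this list 11 of 15 were lower and 1 higher in LECs, with a median log2 difference of -3.48. The gene that went the other way was the water channel Aqp1, at 1117, 394, 449.7 and 488 CPM in LECs and 24.6, 13.9, 24.6 and 4.32 CPM in BECs (log2 difference 5.16 ± 0.33 SE, adjusted p = 8.59e-06). Plvap, the diaphragm protein of fenestrated vessels, was used to choose BECs and is not tested, but it was at 112, 113, 336 and 263 CPM in LECs against 13.2, 10.7, 31.8 and 12.2 CPM in BECs. These values and those of Aqp1 were higher in LECs in each library, although both genes stand in the list as blood endothelial genes.

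The 20 most abundant genes of LECs held 6 mitochondrial genes, Malat1, and genes of translation and the cytoskeleton such as Eef1a1, Tpt1, Tmsb4x and Actb, some of which have like pseudogenes. Apart from Ccl21a, 2 of the 20 were called higher in LECs. Nfat5, the factor of the response to osmotic stress, was at 1451, 1920.3, 3305 and 2304 CPM in LECs and 369.8, 477, 493 and 362 CPM in BECs (log2 difference 2.36, adjusted p = 1.77e-05). Ferritin heavy chain (Fth1) was at 4649.9, 3183, 4992 and 3451 CPM and 2218, 1742, 1845 and 1523 CPM (log2 difference 1.15).

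Cells with and without a Lyve1 UMI were set side by side to show how LECs vary among themselves, as a description with no test. The split was chosen after the values had been seen. A Lyve1 UMI was found in 26 of 40, 76 of 165, 63 of 102 and 11 of 27 LECs (65%, 46.1%, 61.8% and 40.7%). Median UMI counts were 5834, 3154.5, 7267 and 4047 with Lyve1 and 5761, 3777, 7534 and 5550.5 without, so that depth did not run in 1 direction across the libraries. Cells with Lyve1 had the higher level in all 4 libraries of Ccl21a (11781, 5654, 4597 and 8368 CPM against 4617, 2515, 1593 and 3744 CPM), Stab2 (439.7, 131, 81.7 and 285 against 170.0, 59.7, 20.1 and 77.9 CPM) and Aqp1 (1415, 626, 571 and 935 against 536, 239, 156 and 177 CPM). The same held for Flt4, Nrp2, Reln, Mmrn1, Stab1, Mrc1, Ptx3, Fgl2, Maf, Sox18, Pdpn and Rspo3. Cells without Lyve1 had the higher level in all 4 libraries of Cldn11 (8.71, 7.04, 52.8 and 40.7 CPM with and 34.0, 81.7, 110.4 and 177 CPM without), Gata2 (8.71, 14.1, 92.1 and 40.7 and 25.5, 50.3, 130.5 and 134 CPM), Foxp2 and Sema3a. In Fosl2F/F 1 Cldn11 rests on 2 UMIs with Lyve1 and 4 without, and Gata2 on 2 and 3, where a count of 3 UMIs corresponds to 13.1 and 25.5 CPM, so that library was at or near the limit of detection for both. In cells with Lyve1, Cldn11 rests on 3 UMIs in Fosl2F/F 2 and 4 in Fosl2cKO 2, and Gata2 on 4 in Fosl2cKO 2, also at or near that limit. Foxc2, Gja4 and Celsr1 were higher without Lyve1 in 3 of 4 libraries, and so was Nts (78.4, 89.2, 1136 and 102 CPM with and 76.5, 363, 2752 and 1104 CPM without). Of the valve list, Itga9, Fn1 and Gja1 were split evenly, with 2 libraries each way, and Piezo1 was higher with Lyve1 in 3 of 4 libraries. Prox1 was split evenly too. Ccl21a, Reln, Flt4 and Lyve1 could each help a cell pass the rule, so their levels in the 2 sets of cells are not independent of it.

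**Figure D3:**
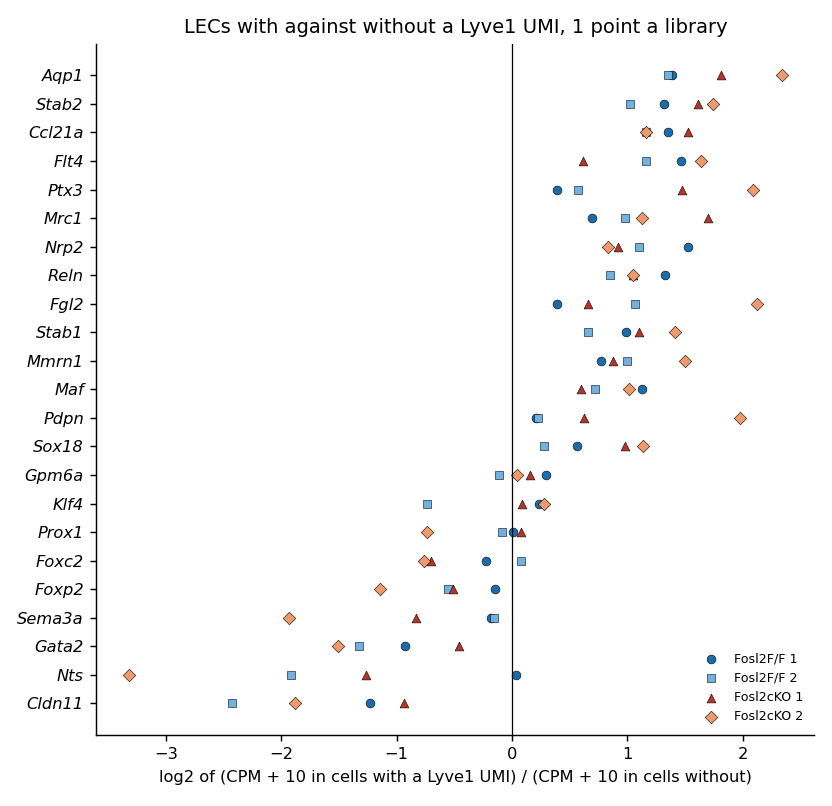
Level in LECs with a Lyve1 UMI over the level in LECs without, as log2 of the ratio of CPM + 10, with 1 point a library for each gene. From Aqp1 down to Sox18 all 4 points lie above 0, and for Foxp2, Sema3a, Gata2 and Cldn11 all 4 lie below 0.

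The conditions were compared in LECs on UMIs summed per library. First, the targeted gene was checked. Fosl2 (chr5:32135801-32157842, plus strand, GRCm38), a subunit of the AP-1 factor, was at 162, 184, 175 and 132 CPM in GCs, where the Cyp19a1 promoter is active, and the libraries overlapped (log2 change -0.20 ± 0.18 SE, adjusted p = 0.918). The level of Fosl2 RNA thus did not separate the labels, and Fosl2cKO is used here as the label alone. The study itself reports depletion of Fosl2 protein in GCs of these mice by immunoblotting, which RNA counts do not measure. A 3′ kit counts the end of the transcript, and whether that end lies within the deleted part was not determined here. In LECs Fosl2 was at 147, 209, 171 and 96.0 CPM (log2 change -0.35 ± 0.38 SE, adjusted p = 0.92), with Fosl2cKO 1 between the Fosl2F/F libraries. The libraries did differ in Plb1, which encodes a phospholipase and starts 74865 bases after the end of Fosl2 on the same strand. In GCs Plb1 was at 0.113, 0.115, 613 and 441 CPM, the 1 gene called of 17409 there in edgeR (0.00574%, adjusted p = 0.000945). Without Fosl2F/F 1 no gene was called in GCs, without Fosl2cKO 1 46 were, and DESeq2 called 195. In LECs it had 0, 1, 25 and 21 UMIs, of which 56.0% and 90.5% in Fosl2cKO 1 and 2 came from a single cell. Detected in 0 of 40, 1 of 165, 12 of 102 and 3 of 27 LECs, Plb1 did not pass the test in LECs (adjusted p = 0.337 in edgeR), with a pooled ratio of 40.4 with a counting interval of 6.90 to 1630. In BECs it was detected in 0 of 106, 1 of 633, 16 of 137 and 30 of 154 cells. The share of cells with a Plb1 UMI was 78.7% and 71.6% in the GCs of Fosl2cKO 1 and 2, at medians of 24152 and 21028 UMIs a cell, and the part of GC RNA in the LEC values was not tested.

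No gene passed the test between conditions in LECs, 0 of 8708 (0.0%) in edgeR, where the limits were an adjusted p of 0.1 and a log2 change of 0.25, with 576 genes at an unadjusted p under 0.05. DESeq2 called 2 genes, Inhbb and Cebpd. Leaving out 1 library gave 195 calls without Fosl2F/F 1, 399 without Fosl2F/F 2, 83 without Fosl2cKO 1 and 130 without Fosl2cKO 2. The 10 genes with the smallest p all had an adjusted p of 0.337, and none had groups that overlapped, as was the case for 37.7% of all genes fitted. They are given with their values and are not called changed.

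Of these 10, 4 had higher values in the libraries labelled Fosl2cKO. Cebpd, a C/EBP factor of acute phase and hormone responses, was at 46.1, 79.1, 339.8 and 275 CPM (log2 change 2.27 ± 0.37 SE). The groups did not overlap in BECs either, at 31.2, 36.8, 136 and 173 CPM, nor in GCs, at 4.59, 8.73, 21.6 and 30.1 CPM, where Cebpd did not pass the test (adjusted p = 0.51 in edgeR). The condition effect on Cebpd differed between LECs and BECs by 0.16 on the log2 scale, with an adjusted p of 0.972 in edgeR's test of that difference. Ier5, an immediate early gene, was at 17.3, 24.5, 88.6 and 129 CPM in LECs and 34.0, 25.7, 62.1 and 145 CPM in BECs. Rassf10 was at 0, 4.71, 36.6 and 50.1 CPM in LECs, from 0, 5, 50 and 12 UMIs. Leaving out 1 library moved the fold of 5 of the 11 genes named between conditions by over 1.5 times, namely Nts, Rassf10, Chst8, Ctnna2 and Plb1.

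Nts was the fourth, at 77.7, 253, 1608 and 693 CPM (log2 change 2.78 ± 0.55 SE), and the log2 change was 3.89 without Fosl2F/F 2 and 1.98 without Fosl2cKO 1. Few LECs carried it in Fosl2F/F and more in the libraries labelled Fosl2cKO, with 5 of 40, 34 of 165, 49 of 102 and 8 of 27 cells. After thinning every cell to 2000 UMIs, which left out 1, 41, 1 and 1 LECs, these shares were 7.69, 20.2, 41.6 and 23.1%, so the order of the libraries was the same at equal depth, although the exact 95% binomial intervals of Fosl2F/F 2 (13.5 to 28.3%) and Fosl2cKO 2 (8.97 to 43.6%) overlapped. In BECs, which should lack it, at most 1.11% of cells had an Nts UMI, at medians of 6839.5, 5704, 10550 and 9578.5 UMIs a cell. In GCs the share was 0.203%, 0.119%, 2.55% and 0.233%, highest in Fosl2cKO 1, the library with the highest level of Nts in LECs. The LECs held 7.92, 57.8, 75.3 and 64.6% of all Nts UMIs of each library, so most lay outside the LECs in Fosl2F/F 1. In Fosl2cKO 2 a single LEC held 51.2% of the Nts UMIs of the LECs. Without the top LEC of each library the levels in LECs were 53.0, 205, 1440.4 and 363 CPM. The 2 groups still did not overlap. The fitted condition effect on Nts was larger in LECs than in BECs by 6.32 on the log2 scale (2.18 without Fosl2F/F 2 and 7.61 without Fosl2cKO 1). BECs held 32 Nts UMIs in all, mostly in Fosl2F/F 2, and were otherwise at the limit of detection, so its size is not firm. The difference missed the threshold (adjusted p = 0.156 in edgeR), as did all 10169 genes of that test. That test called 0 genes (0.0%) in edgeR, with 633 at an unadjusted p under 0.05, and 0 in DESeq2. Without Fosl2F/F 1 it passed for Nts, as 1 of 77 genes called.

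Because Fosl2 is an AP-1 subunit, the 250 bases before the start of each of these genes were searched for the AP-1 motif TGANTCA, which reads the same on both strands. Of 7 of the 10 genes with a window in the RefSeq table (GRCm38.p6), 2 held it, Nts and AA467197, against 7.82% of all 27025 genes in the table. Of the genes named against BECs, 2 of 9 higher (Nts and Fgf12) and 1 of 9 lower (Esrrg) held it, as did 0 of 13 of the most abundant. The stretch of the Nts window with the motif in capitals is shown since Nts had the highest level of the 10 genes (chr10:102490579-102490665, minus strand, 207 to 201 bases before the start).
Nts: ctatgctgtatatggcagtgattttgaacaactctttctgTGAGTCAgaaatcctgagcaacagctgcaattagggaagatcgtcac
A match describes the letters alone, and binding was not measured here.

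The other 6 genes had lower values in the libraries labelled Fosl2cKO. Inhbb, the inhibin and activin beta B subunit, was at 173, 90.4, 12.5 and 16.7 CPM (log2 change -3.21 ± 0.50 SE) in LECs and at 933, 667, 664 and 669 CPM in GCs. Chst8, a sulfotransferase for hormone glycans, was at 60.5, 105, 17.6 and 8.35 CPM in LECs and 421, 363, 324 and 292 CPM in GCs. The catenin Ctnna2 was at 107, 83.8, 22.0 and 8.35 and 272, 249, 189 and 460.3 CPM, the growth factor Pdgfc at 31.7, 36.7, 3.66 and 4.17 and 82.8, 85.5, 81.6 and 116 CPM and Gm35533 at 28.8, 36.7, 2.93 and 4.17 and 56.7, 42.8, 78.8 and 35.2 CPM in LECs and GCs. These 5 genes were thus all present in GCs, at higher levels than in LECs in each library. In Fosl2cKO 2 the LEC levels of Chst8, Ctnna2, Pdgfc and Gm35533 were under its limit of detection of 12.5 CPM. Pdgfc and Gm35533 rest on 6 and 5 UMIs in the LECs of both libraries labelled Fosl2cKO together. Of the 9 GC markers, all were detected in the LECs of each library, at a summed level of 2185, 1387, 722 and 346 CPM, with Inha alone at 1028, 553, 201 and 37.6 CPM. Serpine2, another of the 9, was at 397, 344, 328 and 163 CPM. It was called higher in LECs than in BECs (log2 difference 1.53). With the scored doublets left out the sum was 1204, 392, 529 and 247 CPM, so that Fosl2F/F 2 then lay below Fosl2cKO 1. The part of GC RNA in these 5 values was not tested. AA467197, a small mitochondrial protein gene, was at 92.1, 70.6, 15.4 and 20.9 CPM in LECs, 0, 0.362, 0 and 0 CPM in BECs and 1.34, 0.345, 0.149 and 0.175 CPM in GCs. It was called higher in LECs than in BECs, where it had 2 UMIs in all. The LECs held 3.20, 35.5, 16.5 and 2.76% of all AA467197 UMIs of each library, so most of them lay outside the LECs.

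**Figure D4:**
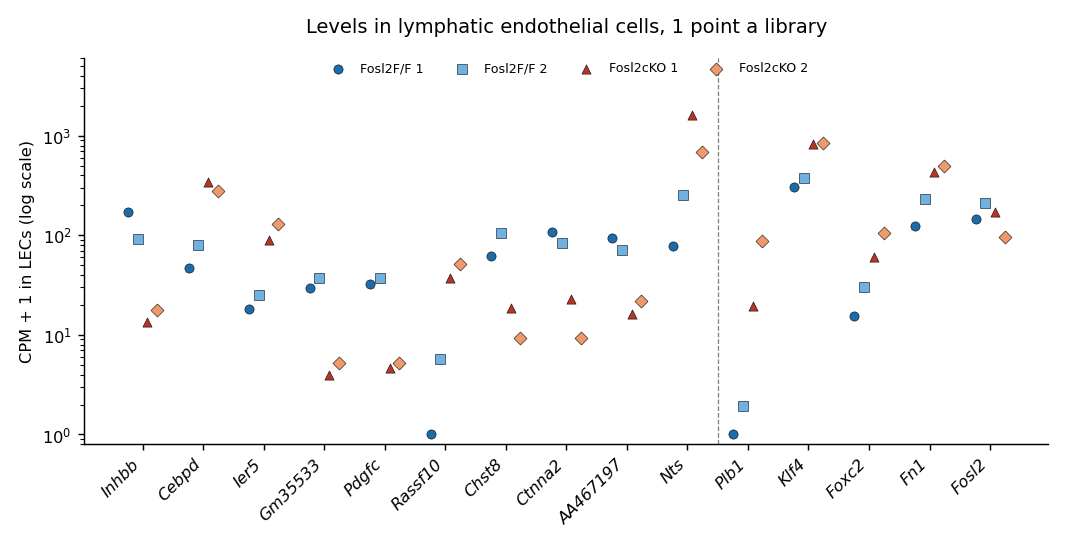
Level in LECs, as CPM + 1 on a log scale, with 1 point a library. Left of the dashed line are the 10 genes with the smallest p between conditions, for which the circle and square (Fosl2F/F) do not overlap with the triangle and diamond (labelled Fosl2cKO). Right of it are Plb1, Klf4, Foxc2, Fn1 and Fosl2.

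Across the gene lists 0 genes were called between conditions. In the list of lymphatic identity genes 9 of 20 had an unadjusted p under 0.05 with a median log2 change of 0.50, and in that of valve and collecting vessel genes 6 of 11 with a median of 0.92, against 6.61% and a median of 0.00 over all genes. The blood endothelial list had 5 of 11 genes at such a p, with a median of 0.60, and the immediate early and heat shock list 5 of 13, with a median of 0.68. Among the other lists, antigen presentation had 2 of 9 with a median of 0.96 and adrenomedullin 2 of 5 with a median of 0.74. Hormone receptors had 2 of 10, with a median of -0.26. The identity and valve lists share genes and were chosen with earlier results of these data known. In the valve list Foxc2 was at 14.4, 29.2, 59.3 and 104 CPM (log2 change 1.71), Gata2 at 14.4, 35.8, 103 and 96.0 CPM (1.87) and Fn1 at 124, 231, 429.9 and 497 CPM (1.36). The mechanosensitive factor Klf4, with 305, 378, 836 and 839 CPM, Dusp1 with 400.2, 538, 1113 and 1072 CPM and Ackr3, a scavenger of adrenomedullin and chemokines, with 63.3, 93.2, 232 and 159 CPM showed the same order of groups. For Klf4 the BECs were at 139, 139.8, 157 and 122 CPM. Of the valve list, Gja1 instead had lower values in both libraries labelled Fosl2cKO, and Celsr1 differed little between the libraries. The share of LECs with Lyve1 ranged from 46.1% to 65% in Fosl2F/F and from 40.7% to 61.8% for the label Fosl2cKO and overlapped between the groups.

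Of the 7 AP-1 genes tested, Jund had the smallest p, at 285, 334, 587 and 2228 CPM in LECs and 186, 199, 246 and 977 CPM in BECs. The value of Fosl2cKO 2 stood apart in both cell types, and Klf2 did the same, at 386, 232, 469 and 1098 CPM and 199.5, 94.4, 164 and 549.6 CPM. Fos was at 2047, 3090.3, 3694 and 1803 CPM and Jun at 1503, 2588, 3147 and 2646 CPM in LECs. Between LECs and BECs, 1 of 7 AP-1 genes was higher, Atf3 (log2 difference 1.15), and 0 were lower. Of 13 immediate early and heat shock genes 3 were higher, Klf2 (1.21), Klf4 (1.97) and Klf6 (1.12), 1 was lower, Ier3 (-1.54), and the other 9 did not pass, against 6.01% higher and 6.29% lower over all genes.

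Markers of other cell types varied between the libraries. Summed over the whole lists, stromal markers (7 of 7 detected) were at 92.1, 719, 384 and 1423 CPM, those of pericytes and smooth muscle (7 of 7) at 31.7, 1226, 379 and 467 CPM and those of theca and luteal cells (5 of 5) at 158, 1810.1, 769 and 167 CPM in LECs. Macrophage markers (5 of 6, with Adgre1 at 0) were at 118, 62.1, 28.6 and 41.7 CPM. Surface epithelial markers (6 of 6) were at 124, 431, 68.1 and 25.04 CPM and those of T and NK cells (4 of 4) at 25.9, 7.53, 2.93 and 0 CPM. The macrophage, surface epithelial and T and NK sums were thus higher in both Fosl2F/F libraries than in those labelled Fosl2cKO, and their part in the comparison of conditions was not tested. The 27 LECs of Fosl2cKO 2 had the highest stromal level, and Fosl2F/F 2 had the highest levels of the pericyte and of the theca lists. With the 61 scored doublets left out, edgeR called 20 genes of 6165 between conditions. Among the 14 with higher values were Nts (adjusted p = 0.0841), Cebpd (0.0724), Ier5 (0.0841) and the AP-1 gene Jund (0.0841), but also the stromal and smooth muscle genes Col3a1, Dcn, Cdh11 and Acta2, and among the 6 lower were AA467197 (0.0485) and the blood endothelial gene Flt1. The summed stromal level was then 39.6, 182, 312 and 1768 CPM, with the highest value again in Fosl2cKO 2. The sum of pericyte and smooth muscle markers was then 35.6, 109.6, 192 and 579 CPM, higher in both libraries labelled Fosl2cKO. That of theca and luteal markers was 154, 1087, 133 and 184 CPM, again highest in Fosl2F/F 2, and that of surface epithelial markers 39.6, 65.3, 57.8 and 15.8 CPM, with groups that then overlapped. Macrophage markers were then at 158, 67.6, 29.4 and 47.4 CPM, still higher in both Fosl2F/F libraries, and those of T and NK cells at 35.6, 0, 0.889 and 0 CPM, with groups that overlapped. The part of these cell types in the calls was not tested.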

How the data were processed

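The authors deposited UMI counts per gene and cell for each of the 4 libraries, aligned to GRCm38 with Cell Ranger (7.1.0 per the file headers). Their methods name CellBender and doublet removal, but whether the deposited counts had passed through them is not given in the sources used here. Cells with at least 500 genes, over 1000 UMIs and under 10% mitochondrial UMIs were kept. LECs, BECs and GCs were chosen by marker genes, and raw counts were summed per library and class. Sums were tested with edgeR 4.0.16 (quasi-likelihood, TMM, Benjamini-Hochberg adjustment), with DESeq2 1.42.0 as an alternative. Genes used to choose cells were not tested between classes. Shares were compared with an exact permutation test. Doublets were scored with Scrublet in scanpy 1.11.5, kept, and left out in an alternative. The top-scoring cells of each library counted as doublets, at a share of 0.8% for every 1000 cells in the library. This gave 617, 4732, 412 and 451 cells, against 313, 3048, 193 and 231 by Scrublet's own threshold. Named genes were the marker genes, the 20 highest by CPM, the 10 smallest p between conditions, the 15 highest and 15 lowest against BECs, list members and AP-1 genes, and Plb1 was added after its values were seen. Members and lists were chosen with earlier results of these data known. Scripts were tested on simulated data with 200 genes changed. The test between conditions in LECs recovered 0 of 200 at a 2-fold change and 161 at a 4-fold change. The result for 1 gene of the junction list is not reported here.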

Additional observations from a re-analysis of the deposited data

How the results depend on the processing

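The 30 genes named between LECs and BECs kept their direction and their side of the threshold in all 420 values under the alternatives, and Fosl2 kept both in LECs and GCs. Of the 11 genes named between conditions, 54 of 148 alternative values passed the threshold and 0 reversed. The count of genes called between conditions was 2 in DESeq2, 203 with no filter on low counts, between 83 and 399 with 1 library left out, 20 without scored doublets and 2 (Plb1 and Lgals7) when cells needed 3 of 6 markers but not both Mmrn1 and Prox1. A fit without 1 library leaves a lone library that is assumed to vary like the other group. The 11 genes were chosen by the smallest p in the main fit of these cells or, for Plb1, after its values were seen. Their kept direction and their passes in fits of nearly the same counts are thus no separate support. With looser limits, adjusted p below 0.1 and log2 differences beyond 0.25, 2291 genes differed between LECs and BECs. The test of a difference in condition effect called 157 genes with no filter, between 0 and 77 with 1 library left out (77 without Fosl2F/F 1), 2 (Nts and Samd12) without scored doublets and 1 (Nts) under 5% mitochondrial UMIs. The share of LECs changed direction without Fosl2cKO 1, with log2 ratios of -0.66 among all cells and -0.69 among endothelial cells. With each library left out in turn these ranged up to 1.33 and 0.83. With the replicate number as a block, 0 genes were called between conditions. The numbers are not a stated pairing, and deviations of same-numbered libraries had a correlation of -0.098. Without the library block 1188 genes differed between LECs and BECs. With 27 to 165 LECs a library, levels at or under 2.20 to 12.5 CPM, depending on the library, were at the limit of detection. The causes of these shifts were not tested.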
